A study of Homo sapiens with 6 samples.

Results

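The genes described here are NFE2L2, which encodes the transcription factor NRF2, KEAP1, its inhibitor, and 8 genes that NRF2 is known to switch on: NQO1, HMOX1, GCLC, GCLM, SLC7A11, TXNRD1, SRXN1 and GPX2. They were taken by symbol from the deposited gene table, where each of the 10 matched 1 of 58302 rows. RNA sequencing had been done on A549, a cell line from a human lung adenocarcinoma. One group of 3 libraries came from cells transfected with SNHG5, a long non-coding RNA that hosts small nucleolar RNAs, and the other group of 3 from cells transfected with vector. Both groups were grown in RPMI medium with fetal bovine serum, and the labels call the libraries biological replicates. The labels do not say whether the cells were a pool or a clone or how long they had been transfected, and untransfected cells were not analysed here. The series title places the study in cell migration, invasion and epithelial-mesenchymal transition.

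NRF2 is made continuously and, in unstressed cells, KEAP1 hands it to a CUL3 ubiquitin ligase for destruction. Oxidants and electrophiles modify cysteines of KEAP1, NRF2 then escapes, pairs with a small MAF protein and binds antioxidant response elements near its target genes. A549 cells carry an inactivating KEAP1 mutation and are widely used as a model of constitutive NRF2 activity. The control of NRF2 by KEAP1 acts on the protein, which RNA levels do not show.

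Antioxidant response elements were searched as the core TGACNNNGC on both strands of RefSeq promoter windows (GRCh38.p14, 250 bases before to 50 after a gene's start). Windows were found for 8 of the 10 genes. These genes had 11 windows, of which 5, from 4 genes, held the core, as did 13.3% of all 35116 windows of this length. The stretches below show, 5′ to 3′ along each gene, 1 core before each start in capitals, so that the letters shared between genes can be compared.
GCLM, chr1:93909441-93909479, minus strand: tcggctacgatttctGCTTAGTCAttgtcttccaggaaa
KEAP1, chr19:10502779-10502817, minus strand: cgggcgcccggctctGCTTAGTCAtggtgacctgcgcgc
GPX2, chr14:64942844-64942882, minus strand: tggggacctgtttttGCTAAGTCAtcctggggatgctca
TXNRD1, chr12:104286915-104286953, plus strand: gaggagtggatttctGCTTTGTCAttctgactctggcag
TXNRD1, chr12:104215665-104215703, plus strand: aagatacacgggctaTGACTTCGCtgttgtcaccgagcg
The first 4 cores lie on the strand opposite to the gene, so the printed letters are the reverse complement of the searched core. GCLM and KEAP1 share the same 9 letters. The GCLM core begins 34 bases before the RefSeq start, that of KEAP1 31, that of GPX2 122, and those of the 2 TXNRD1 starts 102 and 99. The gene positions given below differ from some of these starts. They reach farther upstream for KEAP1 (10503741) and GPX2 (64942905), so these cores, and that of the downstream TXNRD1 start, lie within them. The position of GCLM (93909456) also reaches farther upstream, as far as the last base of its core. KEAP1 holds a second core from 54 to 46 bases before the same start, and TXNRD1 another that spans its upstream start. A match describes the letters only, and elements farther away were outside the windows.

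The label check and the state of the libraries come first. SNHG5 stood at 153.0, 126.3 and 62.8 CPM (the count scaled to library size) in the libraries labelled overexpression 1, 2 and 3 and at 60.9, 101.1 and 55.0 CPM in controls 1, 2 and 3. The groups overlapped, at a log2 fold change of 0.66 (SE 0.37; adjusted p 0.746 by edgeR's quasi-likelihood test), and the library labelled overexpression 3 lay below control 2. Between libraries of the same number SNHG5 was higher in 3 of 3, by 1.33, 0.32 and 0.19 on the log2 scale, with an adjusted p of 0.545 in the edgeR fit with the replicate block. Every direction below is therefore between libraries as labelled. Library totals ran from 13378079 to 16999604 counts, so each of the 10 genes rested on at least 373 counts in every library. Control 2 stood apart, with MALAT1, a nuclear RNA, at 28.0 CPM against at least 118.2 CPM elsewhere, and with 2.57% of counts from mitochondrial genes against 3.8% to 6.16%. Ribosomal RNA took 1.04% to 1.14% of the counts in overexpression and 0.8% to 0.852% in control libraries. The epithelial keratins KRT7, KRT8, KRT18 and KRT19, with EPCAM, summed to 3676.4 to 6050.2 CPM in overexpression and 6212.7 to 6692.1 CPM in control libraries. Among these markers only KRT8 separated the groups, at a log2 fold change of -0.65. The others overlapped, KRT7 and KRT18 at -0.35 and -0.3 and KRT19 and EPCAM at 0.01 and 0.32. Of 5 alveolar type 2 markers, 3 were at 0 counts in every library and the summed level reached 1.38 CPM at most. CDKN2A, a locus that A549 cells have lost, reached 0.458 CPM at most. Of 7 blood, endothelial and fibroblast markers, PTPRC, CD3E and CDH5 were at 0 counts throughout, and the sum ran from 2.98 to 6.22 CPM in overexpression and from 4.39 to 6.58 CPM in control libraries.

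None of the 10 genes passed the edgeR threshold, an adjusted p under 0.05 over the 15631 genes tested, of which 0.128% passed. One of the 10, HMOX1, had an unadjusted edgeR p under 0.05, which 6.49% of all genes had. DESeq2 called 1 of the 10, HMOX1 as lower, where 1.45% of the genes it tested were called and 1.33% were called lower. Limma-voom called 0, beside 0.147% of all genes, and the edgeR fit with the replicate number as a block 0, beside 0.467%. The fitted level was lower in the libraries labelled overexpression for 8 genes and higher for 2, SLC7A11 and TXNRD1, with a median log2 fold change of -0.27 beside 0.01 for all genes tested. Without control 2 the split was 6 lower and 4 higher and the median -0.06. Groups did not overlap for 2 of the 10 genes, against 13.5% of all genes tested. HMOX1 lay below in overexpression, as did 7.52% of all genes, and SLC7A11 above, as did 6.03%.

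**Figure D1:**
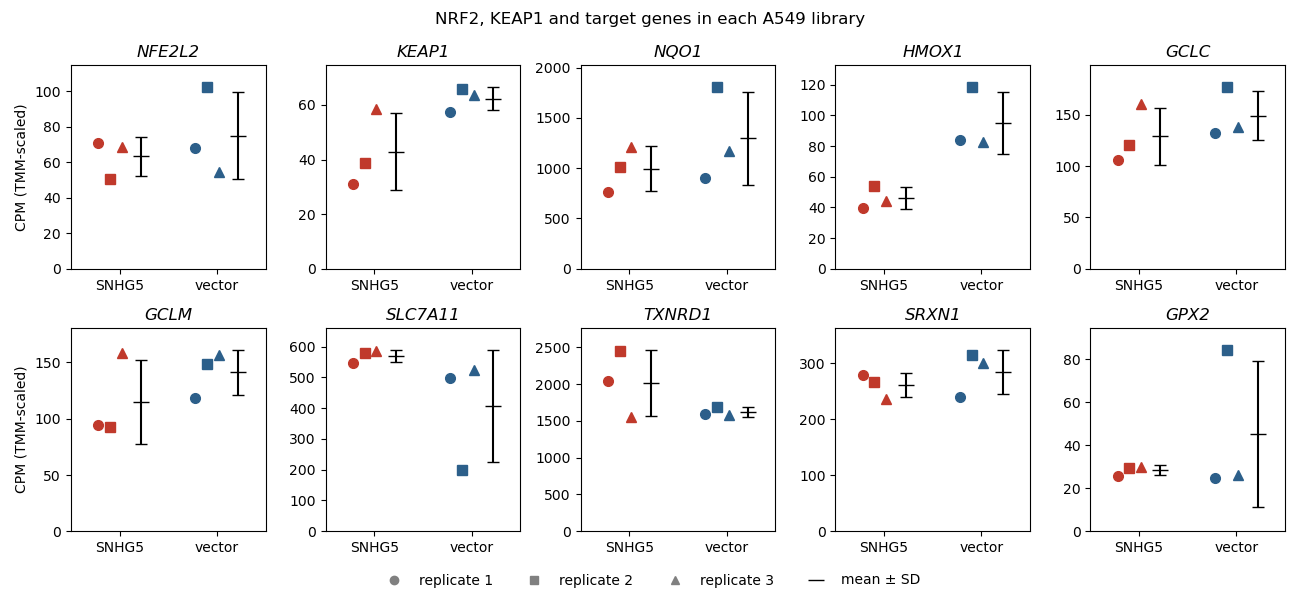
CPM of the 10 genes in each library, with 1 panel per gene, red for SNHG5 overexpression and blue for vector control, marker shapes for replicates 1, 2 and 3, and black bars for the mean ± SD of 3 libraries. HMOX1 lies at 39.7 to 54.1 CPM in the overexpression libraries and at 82.8 to 118.5 CPM in the controls, while control 2 holds the highest value of GPX2, 84.5 CPM, and the lowest of SLC7A11, 199.1 CPM.

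HMOX1 encodes heme oxygenase 1, the inducible enzyme that opens heme to biliverdin, carbon monoxide and iron. HMOX1 (ENSG00000100292, GRCh38 chromosome 22, 35380361 to 35394214, plus strand) stood at 39.7, 54.1 and 44.3 CPM in overexpression 1, 2 and 3 and at 83.9, 118.5 and 82.8 CPM in controls 1, 2 and 3. Every overexpression library lay below every control, and the lowest control exceeded the highest overexpression library. The means were 46.1 ± 7.35 and 95.1 ± 20.3 CPM (SD, n = 3 each), a log2 fold change of -1.05 (SE 0.22), or 2.06-fold lower. The edgeR quasi-likelihood adjusted p was 0.168 without and 0.0923 with the replicate number as a block, and 0.00779 in DESeq2, and over all alternatives it ran from 0.00779 to 0.688, so the call depends on the tool. Between libraries of the same number the log2 difference was -1.08, -1.13 and -0.9, lower in 3 of 3, and the fitted value stayed between -1.18 and -0.86 when each library was left out in turn. The ribosomal RNA share and the summed epithelial marker level given above separated the same groups, though of the summed markers only KRT8 did so alone. The part of either in this difference was not tested. As these are bulk samples, fewer cells expressing a gene and less of its RNA per cell cannot be told apart here or for any other gene.

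The other genes of heme and iron handling gave smaller differences. In a list of 10 of them, 6 had a lower and 4 a higher fitted level, none passed in edgeR, none had an unadjusted p under 0.05 and no gene separated the groups. BLVRA and BLVRB, the biliverdin reductases that act after heme oxygenase, had log2 fold changes of -0.45 (SE 0.33) and -0.36 (SE 0.31), and FTH1, the ferritin heavy chain, -0.34 (SE 0.35). Control 2 alone was high for both reductases, at 53.7 and 149.4 CPM, and without it their values were -0.02 and 0.08. FTH1 ran from -0.78 without overexpression 3 to -0.12 without overexpression 2. HMOX2, the constitutive heme oxygenase, was named after its values were seen and ran from 33.1 to 41.7 CPM in overexpression and from 32.6 to 41.4 CPM in control libraries. Its log2 fold change was 0.01 (SE 0.19).

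NFE2L2 (ENSG00000116044, chromosome 2, 177227595 to 177392697, minus strand) stood at 70.8, 50.8 and 68.5 CPM in overexpression 1, 2 and 3 and at 68.3, 102.4 and 54.7 CPM in controls 1, 2 and 3. The groups overlapped, and the single high value was that of control 2. Its log2 fold change was -0.25 (SE 0.27, edgeR quasi-likelihood adjusted p 0.804), and 0.04 without control 2. KEAP1 (ENSG00000079999, chromosome 19, 10486120 to 10503741, minus strand) stood at 31.1, 38.9 and 58.5 CPM in overexpression 1, 2 and 3 and at 57.6, 65.9 and 63.5 CPM in controls 1, 2 and 3. Overexpression 1 and 2 were low, whereas overexpression 3 lay within the range of the controls. For KEAP1 the log2 fold change was -0.54 (SE 0.25, edgeR quasi-likelihood adjusted p 0.746), reaching -0.83 without overexpression 3 (adjusted p 0.106) and -0.35 without overexpression 1. Per base of annotated exon, NFE2L2 RNA stood at 1.43 times KEAP1 RNA in overexpression 1 and at 0.542 to 0.977 times in the other 5 libraries. By these lengths NFE2L2 was above KEAP1 in 1 of 6 libraries, a count that depends on the lengths used. In the authors' deposited FPKM values, which imply other lengths, NFE2L2 reached 8.89 and KEAP1 8.05 at most. NFE2L2 shares 1054 exon bases with AC019080.1 on the same strand, which held 39 to 66 counts, and 54 with AGPS on the opposite strand, so its count depends on how shared reads were assigned.

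NRF2's partners and regulators, a list of 14 genes of which 13 were tested, showed no common direction, with 6 lower, 7 higher and a median log2 fold change of 0.01. None passed the edgeR threshold, while 4 of the 13 had an unadjusted p under 0.05, beside 6.49% of all genes. Groups did not overlap for 4 of the 13, beside 13.5% of all genes. BACH2, a repressor that competes for the same DNA elements, was too low to test. NFE2L3, the NRF2-related factor NRF3, stood at 37.6, 32.6 and 53.1 CPM in overexpression 1, 2 and 3 and at 110.4, 120.0 and 140.4 CPM in controls 1, 2 and 3. All 3 overexpression libraries lay far below the controls, at 3.01-fold lower (log2 fold change -1.59, SE 0.24). NFE2L3 missed the edgeR quasi-likelihood threshold with an adjusted p of 0.0677 and passed it with the replicate number as a block (0.0378, where 0.441% of all genes passed as lower). It was lower in 3 of 3 pairs, by -1.55, -1.88 and -1.4.

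The small MAF proteins, the obligate DNA-binding partners of NRF2, differed among themselves. MAFK stood at 66.7, 61.0 and 103.6 CPM in overexpression 1, 2 and 3 and at 182.4, 237.8 and 131.0 CPM in controls 1, 2 and 3. Its groups did not overlap, and overexpression 3 and control 3 were the closest libraries across the groups. The log2 fold change was -1.25 (SE 0.30), with an adjusted p of 0.241 in edgeR and 0.0123 in DESeq2. MAFG stood at 100.9, 83.1 and 90.0 CPM in overexpression 1, 2 and 3 and at 57.8, 61.9 and 48.2 CPM in controls 1, 2 and 3, the opposite order, again without overlap. Its log2 fold change was 0.71 (SE 0.19, edgeR quasi-likelihood adjusted p 0.345). Per base of annotated exon, overexpression 1, 2 and 3 had MAFG to MAFK ratios of 1.29, 1.16 and 0.741, against 0.27, 0.222 and 0.314 for controls 1, 2 and 3, ratios computed after the values of both genes were seen. CUL3, the scaffold of the ligase that KEAP1 serves, had a log2 fold change of 0.52 (SE 0.19, edgeR quasi-likelihood adjusted p 0.677), with 83.0 to 98.9 CPM in overexpression and 52.8 to 68.1 CPM in control libraries.

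Glutathione, the main soluble thiol of the cell, is made from cysteine, glutamate and glycine, and glutamate-cysteine ligase sets its rate. GCLC, the catalytic subunit of that ligase (ENSG00000001084, chromosome 6, 53497341 to 53616970, minus strand), stood at 106.1, 121.1 and 160.3 CPM in overexpression 1, 2 and 3 and at 132.3, 177.1 and 138.7 CPM in controls 1, 2 and 3. GCLM, its modifier subunit (ENSG00000023909, chromosome 1, 93885205 to 93909456, minus strand), stood at 94.6, 92.6 and 158.1 CPM in overexpression 1, 2 and 3 and at 118.6, 148.8 and 156.7 CPM in controls 1, 2 and 3. For both subunits overexpression 1 and 2 were the lowest libraries, while overexpression 3 lay among the controls for GCLC and just above the highest of them for GCLM. The log2 fold changes were -0.21 (SE 0.22) for GCLC and -0.3 (SE 0.26) for GCLM, with edgeR quasi-likelihood adjusted p of 0.8 and 0.765, and -0.4 and -0.6 without overexpression 3. Their ratio per base of annotated exon, GCLC to GCLM, stayed between 0.555 and 0.82 over the 6 libraries, with overlapping groups. GCLC shares 529 exon bases with AL033397.1, which held 35 to 117 counts.

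SLC7A11, the cystine-glutamate antiporter subunit xCT that brings in cystine for glutathione (ENSG00000151012, chromosome 4, 138164097 to 138242349, minus strand), stood at 546.5, 577.7 and 584.5 CPM in overexpression 1, 2 and 3. In controls 1, 2 and 3 it stood at 498.5, 199.1 and 523.2 CPM. All overexpression libraries were above all controls, but controls 1 and 3 lay close below them and control 2 far below. The log2 fold change was 0.49 (SE 0.35, edgeR quasi-likelihood adjusted p 0.749), and 0.16 without control 2, and the same-numbered pairs gave 0.13, 1.54 and 0.16. SLC3A2, the heavy chain that carries xCT to the membrane, was named after its values were seen and showed no such low value in control 2, where it stood at 402.2 CPM within a range of 361.9 to 444.8 CPM over the 6 libraries.

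GPX2, a glutathione peroxidase of epithelial cells (ENSG00000176153, chromosome 14, 64939152 to 64942905, minus strand), stood at 25.9, 29.6 and 30 CPM in overexpression 1, 2 and 3 and at 24.8, 84.5 and 26.4 CPM in controls 1, 2 and 3. Control 2 alone was high, at 2.81 times the next library, and the other 5 spanned 24.8 to 30 CPM. The log2 fold change of -0.66 (SE 0.46, edgeR quasi-likelihood adjusted p 0.749) turned to 0.15 without control 2.

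Of 26 further glutathione genes 24 were tested and none passed in edgeR, with 17 lower and 7 higher. An unadjusted edgeR p under 0.05 was seen for 2 of the 24, beside 6.49% of all genes. GPX7 and GSTA1 were at 0 counts in every library. The median log2 fold change was -0.16, and 0.01 without control 2. GLRX, the glutaredoxin that reduces glutathione-protein disulfides, stood at 22.1, 28.6 and 24.4 CPM in overexpression 1, 2 and 3 and at 38.5, 73.8 and 65.9 CPM in controls 1, 2 and 3. The groups did not overlap, with overexpression below, as for 7.52% of all genes tested. The log2 fold change of -1.25 (SE 0.27) had an adjusted p of 0.181 in edgeR, 0.0966 with the block and 0.00663 in DESeq2. GSTP1, a glutathione transferase, and GLO1, the glyoxalase that uses glutathione to clear methylglyoxal, had log2 fold changes of -0.69 (SE 0.34) and -0.66 (SE 0.29), and -0.32 and -0.39 without control 2.

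**Figure D2:**
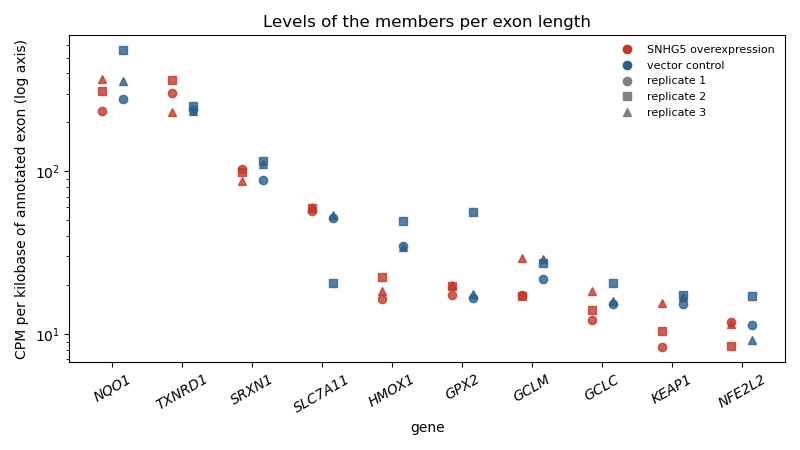
Level of each of the 10 genes per length, as CPM per kilobase of annotated exon on a log axis, with 1 point per library, red for SNHG5 overexpression, blue for vector control and marker shapes for the replicates. The genes are ordered by mean, from NQO1 at 351.9 to NFE2L2 at 11.6, and the lone low blue square of SLC7A11 and the lone high one of GPX2 are control 2.

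The thioredoxin arm uses NADPH to reduce protein disulfides and peroxiredoxins. TXNRD1, the cytosolic thioredoxin reductase and a selenoprotein (ENSG00000198431, chromosome 12, 104215779 to 104350305, plus strand), stood at 2037.8, 2454.5 and 1549.8 CPM in overexpression 1, 2 and 3 and at 1587.4, 1692.1 and 1574.7 CPM in controls 1, 2 and 3. Overexpression 1 and 2 were the highest libraries, and overexpression 3 was the lowest. The log2 fold change was 0.32 (SE 0.23, edgeR quasi-likelihood adjusted p 0.749), ranging from 0.14 without overexpression 2 to 0.47 without overexpression 3. SRXN1, the sulfiredoxin that restores overoxidised peroxiredoxins (ENSG00000271303, chromosome 20, 646615 to 653370, minus strand), stood at 279.9, 266.8 and 236.5 CPM in overexpression 1, 2 and 3 and at 240.1, 314.4 and 300.1 CPM in controls 1, 2 and 3. These groups overlapped and had the smallest ratio of highest to lowest library among the 10 genes, with a log2 fold change of -0.13 (SE 0.19, edgeR quasi-likelihood adjusted p 0.852). SRXN1 shares 2292 exon bases with AL121758.1, a gene model listed at 0 counts in every library.

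Of 17 further thioredoxin and peroxiredoxin genes all were tested, none passed in edgeR and none had an unadjusted p under 0.05. The median log2 fold change was -0.15, and 0.05 without control 2. TXN, thioredoxin itself, was at 615.4 CPM in control 2 and between 214.7 and 327.8 CPM in the other 5 libraries, and its log2 fold change went from -0.45 (SE 0.37) to 0.05 without control 2. NXN, nucleoredoxin, was at 14.2 and 16.1 CPM in overexpression 1 and 2, at 33.6 CPM in overexpression 3 and between 29 and 31.6 CPM in the controls. TXNIP, the thioredoxin-binding inhibitor, had the widest spread of the list, from 1.05 CPM in overexpression 3 to 30.5 CPM in overexpression 2, and a log2 fold change of 1.29 (SE 0.96). It was low in replicate 3 of both groups, with 2.71 CPM in control 3 and at least 9.38 CPM in replicates 1 and 2. Pair 3 gave -1.27, and the log2 fold change was 0.72 (SE 0.56) with the block and 0.46 in limma-voom.

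NQO1, a quinone reductase that uses NADPH or NADH and a standard readout of NRF2 activity (ENSG00000181019, chromosome 16, 69706996 to 69726951, minus strand), stood at 765.5, 1009.8 and 1208.6 CPM in overexpression 1, 2 and 3. In controls 1, 2 and 3 it stood at 905.8, 1806.1 and 1174.2 CPM. The groups overlapped, and control 2 held 1.49 times the next highest library. The log2 fold change of -0.38 (SE 0.31, edgeR quasi-likelihood adjusted p 0.755) was -0.07 without control 2, and the same-numbered pairs gave -0.24, -0.84 and 0.04.

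Among 10 NADPH supply genes 9 were lower and 1 higher, none passing in edgeR and 1 at an unadjusted p under 0.05, beside 6.49% of all genes. Their median log2 fold change was -0.26. That median was -0.13 without overexpression 1 or without overexpression 2, -0.59 without overexpression 3 and -0.17 without control 2, and in pair 3 it was 0.09. PGLS, an enzyme of the pentose phosphate pathway, and NADK, which makes NADP, had log2 fold changes of -0.53 (SE 0.22) and -0.55 (SE 0.26). Among 25 detoxification and export genes 20 were lower and 5 higher, none passing and 1 at an unadjusted p under 0.05, beside the same 6.49% of all genes. The median of this list was -0.26, and -0.08 without control 2. CBR3 and CBR1, carbonyl reductases, had log2 fold changes of -1.33 (SE 0.42) and -1.05 (SE 0.72), the second reaching -2.43 without overexpression 3. CBR1 was at 24.0 and 17.1 CPM in overexpression 1 and 2 but at 119.6 CPM in overexpression 3, against 56.8, 139.5 and 136.7 CPM in controls 1, 2 and 3. UGT1A1, a glucuronosyltransferase at -0.64 (SE 0.62), shares its last exons with UGT1A6 and is uncertain for that reason. The aldo-keto reductases AKR1B10 and AKR1C1, named after their values were seen, followed control 2 as NQO1 did, at 3596.5 and 776.8 CPM there against at most 2030.4 and 385.7 CPM elsewhere.

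Of 6 other antioxidant genes 5 were tested, 4 lower and 1 higher. None passed and none had an unadjusted p under 0.05. SOD1 and SOD2, the cytosolic and mitochondrial superoxide dismutases, had log2 fold changes of -0.19 (SE 0.33) and 0.33 (SE 0.36), and UCP2, a mitochondrial carrier, -0.62 (SE 0.43). Single libraries moved all 3: SOD1 was 0.18 without control 2, SOD2 ran from 0.14 to 0.62 as each library was left out, and UCP2 was -1.28 without overexpression 3 and -0.33 without overexpression 1. Over the 7 lists, 74 of 104 tested genes were lower and 30 higher, with a median of -0.18, against 7699 lower and 7932 higher among all genes tested. Without control 2 the same 104 genes were 53 lower and 51 higher, with a median of -0.01.

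**Figure D3:**
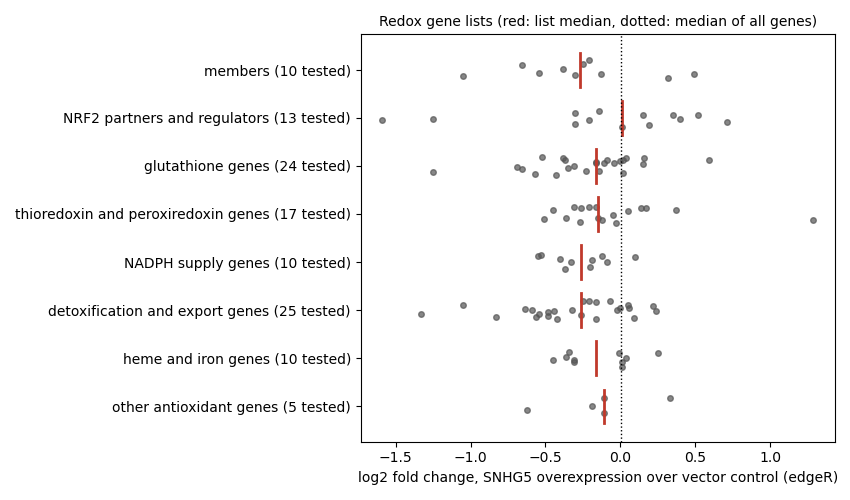
Log2 fold changes, SNHG5 overexpression over vector control from edgeR, of the tested genes in each list, with 1 grey point per gene, a red bar for the list median and a dotted line for the median of all genes tested. Medians lie between -0.27 for the 10 genes described here and 0.01 for NRF2 partners and regulators, and NFE2L3 at -1.59 and TXNIP at 1.29 are the outermost points.

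Libraries also differed within the control group. Control 2 held the highest level of 7 of the 10 genes, NFE2L2, KEAP1, NQO1, HMOX1, GCLC, SRXN1 and GPX2, and the lowest level of SLC7A11, whereas 25.8% of all genes tested were highest and 26.7% lowest in control 2. In the 7 lists 55 of 104 tested genes were highest there. Its margin over the next library was 2.81 times for GPX2, 1.49 for NQO1, 1.45 for NFE2L2 and 1.41 for HMOX1, but 1.1 or less for GCLC, SRXN1 and KEAP1. The same library had the low MALAT1 level and mitochondrial share given above, and their part in this pattern was not tested. In the same-numbered pairs the median log2 difference of the 10 genes was -0.1 in pair 1, -0.72 in pair 2, which holds control 2, and 0.03 in pair 3.

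**Figure D4:**
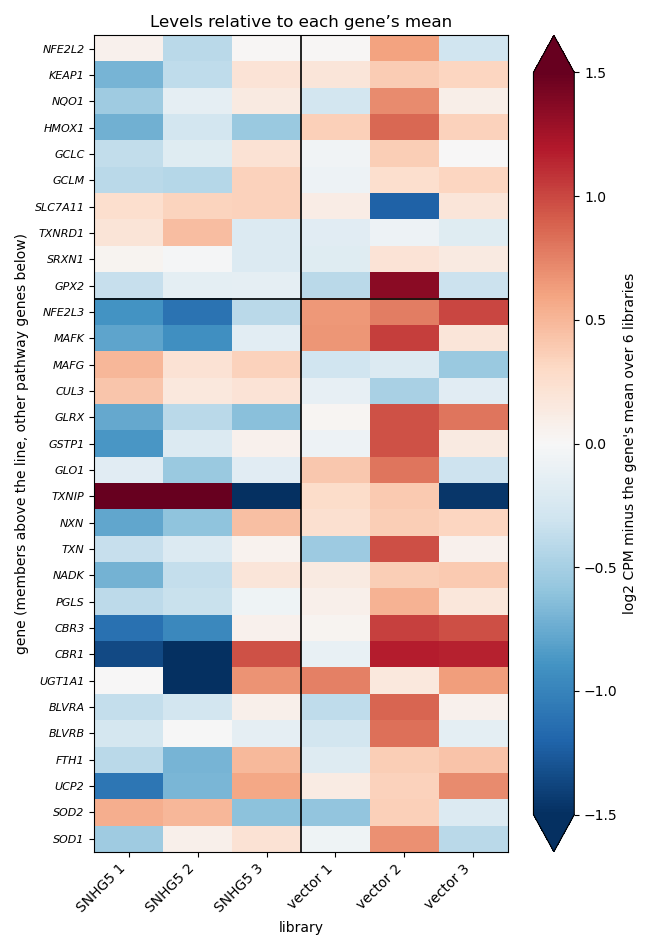
Log2 CPM minus each gene's mean over the 6 libraries, red for above and blue for below, with the 10 genes above the horizontal line, other named pathway genes below it, and the vertical line between groups. The column of control 2 (vector 2) is red in most rows, strongly blue for SLC7A11 and also below the mean for CUL3, MAFG and TXNRD1. HMOX1, NFE2L3, MAFK and GLRX are blue in all 3 overexpression columns, and GPX2, GLO1, PGLS and BLVRB are also below their mean there.

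Levels per length were ordered by CPM per kilobase of annotated exon. NQO1 stood highest at 351.9 ± 111.8 (SD over 6 libraries), followed by TXNRD1 at 270.7 ± 53.9, SRXN1 at 101.2 ± 11.7 and SLC7A11 at 50.6 ± 15.1. NQO1 exceeded TXNRD1 in 4 of 6 libraries, so that pair did not differ beyond its spread. TXNRD1 exceeded SRXN1 and SRXN1 exceeded SLC7A11 in 6 of 6. HMOX1 (29.3 ± 12.5), GPX2 (24.6 ± 15.6) and GCLM (23.7 ± 5.61) formed a middle group whose ranges overlapped. GCLC (16.1 ± 3.0), KEAP1 (14 ± 3.76) and NFE2L2 (11.6 ± 3.04) were lowest, so the 2 regulators stood below all 8 targets by their means. The FPKM values of the authors' deposited table imply other gene lengths and put SRXN1 (101.2) next to TXNRD1 (100.4) and GPX2 (8.35) below GCLM (15.6) and GCLC (9.98).

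**Figure D5:**
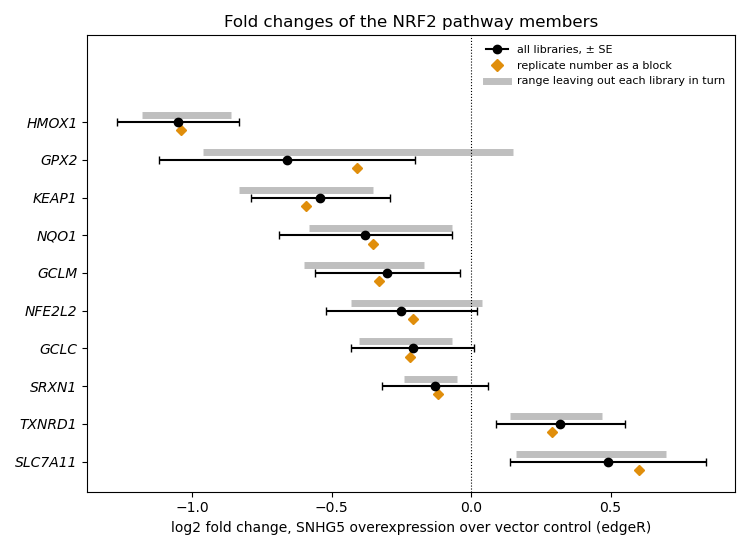
Log2 fold change of each of the 10 genes, SNHG5 overexpression over vector control from edgeR, with black points ± SE for all 6 libraries, orange diamonds for the fit with the replicate number as a block and grey bars for the range over fits that leave out each library in turn. HMOX1 keeps to -1.18 to -0.86, while the bars of GPX2 (-0.96 to 0.15) and NFE2L2 (-0.43 to 0.04) cross 0.

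The genes whose log2 CPM followed NFE2L2 and KEAP1 most closely were sought among 8103 other protein-coding genes with a mean of at least 4 on the log2 CPM scale. For NFE2L2 these were C1QBP, ATP5F1B and PTTG1, with a Pearson r of 0.964, 0.96 and 0.946 over the 6 libraries, and 34 genes exceeded 0.9. For KEAP1 they were INAVA, AGAP3 and PCNX3, each at 0.998, and 629 genes exceeded 0.9. The points share 6 libraries and the scaling of each, so these values describe likeness only.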

How the data were processed

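RNA of 6 A549 libraries, 3 per group, was extracted on silica columns and made into paired-end libraries with a TruSeq RNA kit, per the labels' protocols. FastQC, HISAT2 and the GRCh38 build are named in the submitters' processing notes. How reads were counted, strand included, is not given in the sources used here. Raw counts and FPKM values were deposited by the authors for 58302 genes, and 28667 genes had a count. Gene positions are those of the deposited table, and exon lengths, strands and overlaps come from GENCODE release 29.

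The test was that of edgeR 4.0.16 under R 4.3.3 (TMM factors, filterByExpr, robust quasi-likelihood test, group only, two-sided), with Benjamini-Hochberg adjustment over 15631 genes and a threshold of 0.05. CPM values use TMM-scaled library totals. The standard error is the log2 fold change divided by the square root of F. Log2 CPM has a prior count of 2. Alternatives were the replicate block, RLE factors, other filters, DESeq2 1.42.0, limma-voom (limma 3.58.1) and leaving out each library. Simulated counts with known changes were used to check that test. They were drawn independently, with a common spread for all genes and no outlying library such as control 2. P-values set the difference between the groups against the spread among these libraries, estimated with information shared over genes.

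Same-numbered libraries deviated together from their group means (r = 0.355, 0.157 and 0.292), so the numbers were taken as pairs. For libraries of different numbers r ran from -0.341 to 0.117, so pair 2 stood out little. Deviations within a group cancel out by construction, so positive values for the same numbers force negative ones among different numbers. The sample titles number the libraries without naming pairs, and the pairing therefore rests on these same data. Beside the 10 genes, the text names each pathway gene past the threshold without or with the block and the 3 largest changes per list with a mean log2 CPM of at least 2. The genes and lists were chosen with earlier results of these data known. One gene that this rule picks is not reported here.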

Additional observations from a re-analysis of the deposited data

How the results depend on the processing

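Over 12 alternatives for each of the 10 genes, 119 of 120 results stayed on the same side of the threshold, and the exception was HMOX1 in DESeq2, so that 1 of the 10 genes was lower there in place of 0. NFE2L2 and GPX2 changed sign without control 2. In the 7 lists the lower genes numbered 0 in edgeR, 1 with the replicate block, 1 with no filter on low counts, 3 in DESeq2 (NFE2L3, MAFK and GLRX) and 0 to 1 without 1 library, NFE2L3 passing without overexpression 3 (adjusted p 0.0202). Over all genes the higher ones numbered 4, against 22 in DESeq2 and 0 to 20 without 1 library. The lower ones were 16, and became 69 under the replicate block, 72 when no filter was used, 240 in DESeq2 and 0 to 144 without 1 library. No gene passed in edgeR without overexpression 2, without control 2 or without control 3, and 1 passed without overexpression 1. SNHG5 stayed short of the threshold in all 12 alternatives, at 0.39 to 0.97 without 1 library. The block changed no other call named here. The cause of these shifts was not tested. The smallest count behind any of the 10 genes was 373, for GPX2.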

Other observations

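As for TXNIP above, replicate 3 of both groups stood apart from replicates 1 and 2 in 2 stress-responsive genes of the lists. MAFF, a small MAF protein induced by stress, was at 35.3, 42.9 and 8.43 CPM in overexpression 1, 2 and 3 and at 40.7, 39.9 and 5.41 CPM in controls 1, 2 and 3. SQSTM1, the autophagy receptor p62 that binds KEAP1, was at 974.3, 1144.3 and 717.2 CPM in overexpression 1, 2 and 3 and at 1397.8, 1472.9 and 613.2 CPM in controls 1, 2 and 3. For both genes the number of the replicate separated the libraries more than the group did, with log2 fold changes of 0.01 (SE 0.77) for MAFF and -0.3 (SE 0.36) for SQSTM1. With the replicate number as a block the SE of MAFF was 0.23 and that of SQSTM1 0.22. These genes were chosen after their values were seen.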
